A study of Sus scrofa with 10 samples.

Results

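The genes described here are 42 complement and clotting factors of the pig, looked up by gene symbol in the deposited table of 25880 genes. Of the 42 genes, 40 had a row of their own, 37 by the position of the gene model on the assembly Sscrofa11.1 and 3 (C8G, C4BPA and F13B) by name alone. C1R and C1S shared a single gene model and had no row each. Of the 40, 39 reached 1 FPKM (fragments per kilobase of gene model, scaled to library size) in at least 1 tissue and are called tested below, while THBD was listed at 0 throughout.

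RNA abundance was measured by RNA-seq in Northeast Min pigs, a domestic breed, at 60 days of age. There was 1 library each from liver, kidney, lung, spleen, ovary, subcutaneous adipose tissue, heart, psoas major and longissimus dorsi, and 1 from a pool of tissues. How many animals gave these tissues is not stated in the labels, and no treatment or genotype is named. With 1 library per tissue no difference has a replicate check, so no p-value or error is given and each value describes that library.

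Complement is a cascade of plasma proteases and binding proteins that tags and lyses microbes. It is started by antibody-bound C1q (the classical pathway), by sugar-binding lectins (the lectin pathway) or by spontaneous turnover of C3 (the alternative pathway), and all routes meet at C3 and end in the membrane attack complex. Clotting is a parallel cascade in which tissue factor or surface contact starts a chain of proteases that ends with thrombin cutting fibrinogen to fibrin, which plasmin later dissolves. Hepatocytes are the textbook source of most of these plasma proteins, with macrophages and endothelium as known sources of some. The roles given below are those known from the human proteins.

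Most of the factors had their highest level in liver, and a minority had it in spleen, lung, adipose tissue or heart. Levels were compared as log2(FPKM + 1), with psoas major and longissimus dorsi averaged into 1 class, so that 8 classes were compared. Of the 39 tested factors 26 were highest in liver, where 5.67% of all 15637 tested genes were highest. Spleen was the highest class for 6 (19.2% of all genes), lung for 4 (15.0%), adipose tissue for 2 (6.72%) and heart for 1 (7.04%). Kidney, ovary and skeletal muscle, which together were the highest class for 46.4% of all genes, were it for none. Enrichment required a level of 1 FPKM or more and an FPKM + 1 exceeding each of the other classes by 5-fold or more. By this rule 18 factors were enriched in liver, against 1.51% of all genes, and none in any other class, against 4.98%. The genes were listed as plasma factors, so these counts are a description. Median-of-ratios scaling, which sets the median gene of each library level, raised the difference between liver and the highest other class for each of the 39 factors, and 24 were then enriched in liver. In bulk tissue, fewer cells of a type and less RNA per cell cannot be told apart, here or below.

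The difference between liver and the mean of the other classes had a median of 5.51 on the log2 scale over the tested factors, against -0.70 over all tested genes. It was above 0 for 32 of the 39, against 17.1% of all genes. For the 19 tested complement genes the median was 4.51, with 11 highest and 7 enriched in liver. For the 20 tested genes of clotting and fibrinolysis it was 5.54, with 15 highest and 11 enriched in liver. The rows of the 40 factors together made up 5.17% of the summed FPKM of the liver library, 1.18% in lung, 1.18% in spleen, 0.394% in adipose tissue, 0.349% in ovary and 0.224% in kidney. In heart the share was 0.102%, and in both skeletal muscles it was 0.0578%.

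Set beside all tested genes, the share of factors detected was higher in liver, about equal in adipose tissue and lower in every other tissue. At 1 FPKM or more, 37 of the 39 factors were detected in liver (62.7% of all genes), 29 in adipose tissue (73.0%), 25 in kidney (76.1%), 23 in lung (81.8%), 20 in ovary (84.2%) and 18 in spleen (76.7%). Heart and longissimus dorsi had 16 each (68.9% and 61.3%) and psoas major 15 (65.5%). Liver alone reached this level for 4 factors, namely C8A, C8B, F7 and F13B, against 0.921% of all genes. All 9 tissues reached it for 10 factors, against 49.0% of all genes, and these were the 3 C1q chains, C2, C3, CFD, C4BPA, F8, VWF and PROS1.

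**Figure D1:**
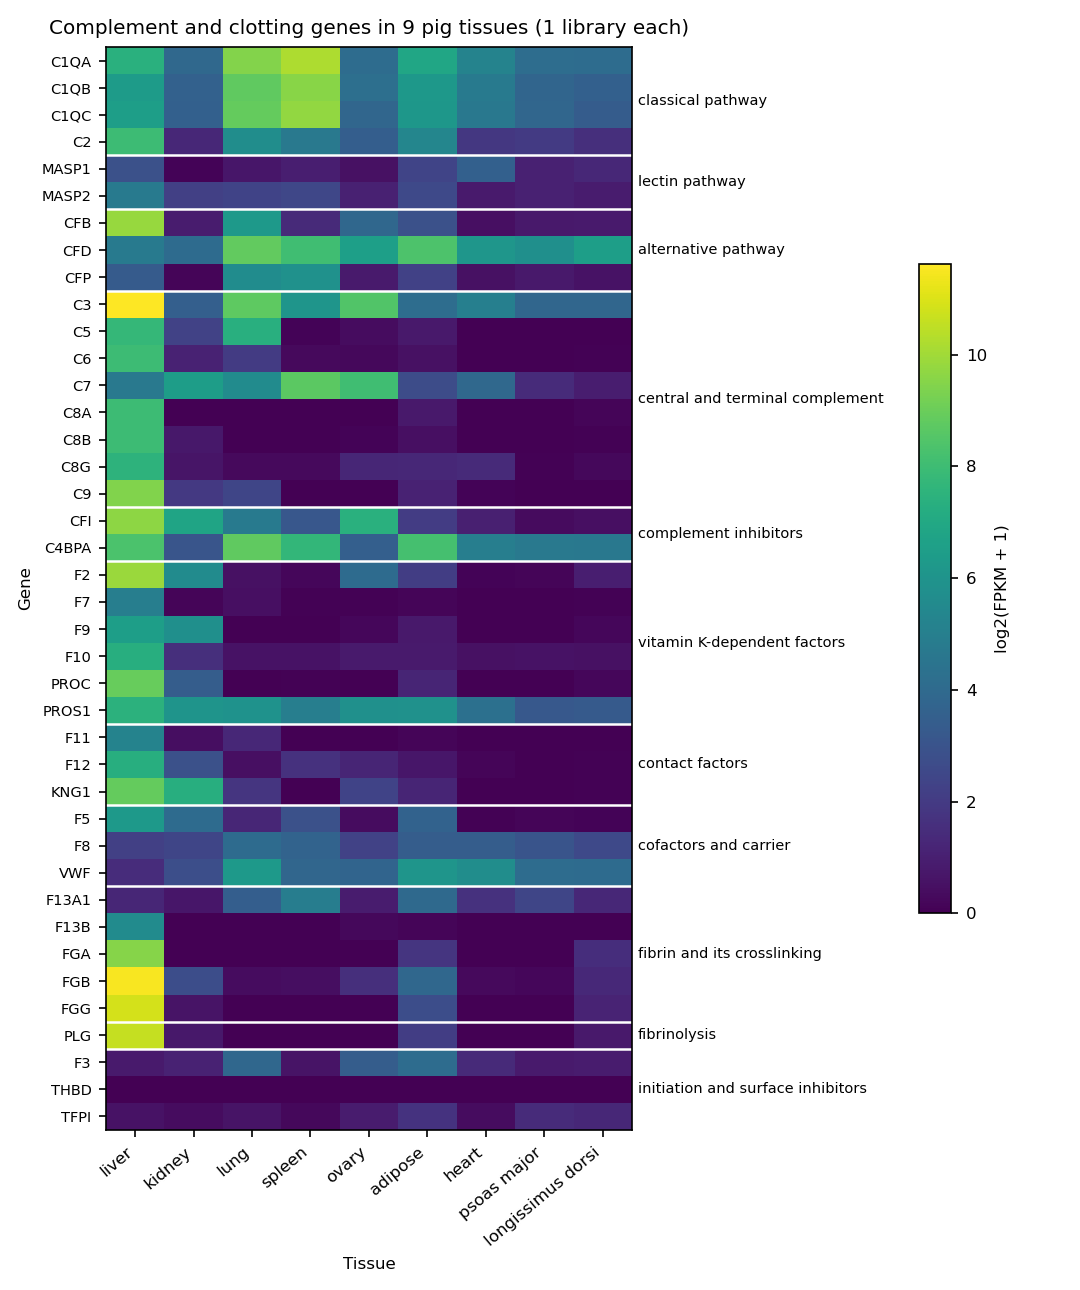
Heat map of the level of each of the 40 factors with a row of its own, THBD included, as log2(FPKM + 1). Genes are in rows ordered by role and the 9 tissues in columns, liver at the left, 1 library each. Brighter colours are higher levels. The liver column is bright for most rows, and the rows of C1QA, C1QB, C1QC, CFD, C7, VWF, F8 and F13A1 are brighter elsewhere.

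Fibrinogen and plasminogen had the largest folds of liver over any other class. Fibrinogen, the soluble precursor of the fibrin clot, is built from 3 chains encoded side by side on chromosome 8. FGB, the beta chain (ENSSSCG00000008997, chromosome 8, 74598170 to 74607409), stood at 2925 FPKM in liver, against 5.64 in kidney, 0.321 in lung, 0.335 in spleen, 1.96 in ovary, 13.7 in adipose tissue, 0.209 in heart, 0.146 in psoas major and 1.55 in longissimus dorsi. FGG, the gamma chain (ENSSSCG00000024314, chromosome 8, 74552838 to 74563899), stood at 1883 FPKM in liver, against 0.550 in kidney, 0 in lung, 0 in spleen, 0 in ovary, 5.73 in adipose tissue, 0 in heart, 0 in psoas major and 1.27 in longissimus dorsi. The alpha chain gene FGA (ENSSSCG00000008998, chromosome 8, 74574919 to 74582800) stood at 736 FPKM in liver, against 0 in kidney, 0 in lung, 0 in spleen, 0 in ovary, 2.44 in adipose tissue, 0 in heart, 0 in psoas major and 1.86 in longissimus dorsi. All 3 were thus far above every other tissue in liver, with adipose tissue next for each, and the fold over adipose tissue on the FPKM + 1 scale was 199 for FGB, 279.8 for FGG and 214 for FGA. A gene model on the other strand that covers FGB (ENSSSCG00000028901, 250 FPKM in liver and 1.16 in adipose tissue) followed the same order. Whether the counting used strand is not given in the sources used here, so reads of that model and of FGB cannot be told apart.

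PLG, which encodes plasminogen, the precursor of the clot-dissolving protease plasmin (ENSSSCG00000004038, chromosome 1, 7061969 to 7109531), stood at 1547 FPKM in liver, against 0.684 in kidney, 0 in lung, 0 in spleen, 0.0105 in ovary, 3.35 in adipose tissue, 0 in heart, 0 in psoas major and 0.751 in longissimus dorsi. Adipose tissue was again next, and the fold over it, 356, was the largest among the 39 tested factors. The model of PLG overlaps that of SLC22A3, so its low values outside liver may hold reads of that gene. F13B, the carrier subunit of the transglutaminase factor XIII that crosslinks fibrin, lay on an unplaced scaffold and was found by name alone. It stood at 48.3 FPKM in liver, against 0 in kidney, 0 in lung, 0 in spleen, 0.184 in ovary, 0.105 in adipose tissue, 0 in heart, 0 in psoas major and 0 in longissimus dorsi. Its partner subunit F13A1 had a different order of tissues and is described with the factors highest elsewhere.

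The vitamin K-dependent factors, whose glutamate residues are carboxylated before secretion, were all highest in liver, and 4 of the 6 were enriched there. F2, which encodes prothrombin (ENSSSCG00000013252, chromosome 2, 15793262 to 15819129), stood at 953 FPKM in liver, against 48.3 in kidney, 0.429 in lung, 0.159 in spleen, 15.5 in ovary, 3.37 in adipose tissue, 0.0664 in heart, 0.131 in psoas major and 0.991 in longissimus dorsi, a fold of 19.4 over kidney. PROC, which encodes protein C, a protease that switches off clotting (ENSSSCG00000023693, chromosome 15, 25043545 to 25054225), stood at 492 FPKM in liver, against 9.82 in kidney, 0 in lung, 0.0476 in spleen, 0.0239 in ovary, 1.33 in adipose tissue, 0 in heart, 0 in psoas major and 0.152 in longissimus dorsi. F10 and F7, the neighbouring genes of the proteases factor X and factor VII on chromosome 11, stood at 157 and 30.2 FPKM in liver, against at most 1.98 (kidney) and 0.383 (lung) elsewhere. The model of F10 overlaps that of PCID2, so its low values outside liver may hold reads of that gene. F2 and PROC were thus the members of this group with a second level above 5 FPKM, in kidney, together with the unenriched F9 and PROS1.

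F9 and PROS1 did not pass the 5-fold rule. F9, the gene of the protease missing in haemophilia B (ENSSSCG00000012711, chromosome X, 114218450 to 114250514), stood at 89.5 FPKM in liver, against 54.9 in kidney, 0.0195 in lung, 0 in spleen, 0.136 in ovary, 0.744 in adipose tissue, 0.0152 in heart, 0 in psoas major and 0.141 in longissimus dorsi. Its level was high in liver and kidney and under 1 FPKM elsewhere, and liver was 1.62-fold above kidney, a difference of 0.69 on the log2 scale that has no replicate behind it and was 1.80 under median-of-ratios scaling. PROS1, the cofactor of activated protein C (ENSSSCG00000025463, chromosome 13, 165914997 to 165995755), stood at 175 FPKM in liver, against 63.9 in kidney, 59.1 in lung, 30.3 in spleen, 56.8 in ovary, 58.4 in adipose tissue, 18.7 in heart, 8.22 in psoas major and 8.90 in longissimus dorsi. It was the broadest of the vitamin K-dependent factors, at 8 FPKM or more in every tissue and 2.72-fold higher in liver than in kidney, but it passed the 5-fold rule under median-of-ratios scaling with a log2 difference of 2.53.

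The contact factors, which start clotting on charged surfaces, were also highest in liver. F12, the protease that starts this route, stood at 153 FPKM in liver, 6.36 in kidney and 2.17 in spleen, and F11, the protease it activates, at 35.9 in liver, 1.44 in lung and 0.350 in kidney. The model of F12 overlaps that of GRK6, so its low values outside liver may hold reads of that gene. KNG1, which encodes the cofactor kininogen and the peptide bradykinin within it (ENSSSCG00000011802, chromosome 13, 124521206 to 124561264), stood at 463 FPKM in liver, against 153 in kidney, 2.48 in lung, 0 in spleen, 4.08 in ovary, 1.28 in adipose tissue, 0 in heart, 0 in psoas major and 0.0557 in longissimus dorsi. F12 and F11 were enriched in liver, with folds of 21.0 over kidney and 15.1 over lung, and KNG1 was 3.01-fold above kidney, the other tissue where it was high. Under median-of-ratios scaling KNG1 passed the 5-fold rule, with a log2 difference of 2.70.

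Of the central and terminal complement components, 7 of 8 were highest in liver and 6 were enriched there. C3, whose cleavage is the meeting point of the pathways (ENSSSCG00000013551, chromosome 2, 72431163 to 72471564), stood at 3164 FPKM in liver, against 10.5 in kidney, 428 in lung, 65.5 in spleen, 351 in ovary, 16.6 in adipose tissue, 31.9 in heart, 13.5 in psoas major and 13.5 in longissimus dorsi. It had the highest liver level of the 39 factors and also the smallest fold of the 18 enriched ones, 7.38 over lung, with ovary close behind lung. C5, whose cleavage starts the membrane attack complex (ENSSSCG00000005512, chromosome 1, 260995666 to 261133505), stood at 211 FPKM in liver, against 3.89 in kidney, 161 in lung, 0.0818 in spleen, 0.289 in ovary, 0.714 in adipose tissue, 0.00754 in heart, 0.0265 in psoas major and 0.0234 in longissimus dorsi. Liver and lung were both high and the other tissues low, and the liver level was 1.31-fold that of lung on the FPKM + 1 scale, a log2 difference of 0.39 that was 1.83 under median-of-ratios scaling. The gene model of C5 overlaps that of CNTRL, so its values may hold reads of that gene.

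The components that assemble the pore were strongly liver-enriched, with C7 as the exception. C8A and C8B, adjacent genes of the alpha and beta chains of C8 on chromosome 6, stood at 249.8 and 252 FPKM in liver and at most 0.762 (adipose tissue) and 0.673 (kidney) elsewhere. C8G, the gamma chain, stood at 181 FPKM in liver and at most 1.65 (heart) elsewhere. C6, which binds C5b first, stood at 246 in liver and 3.04 in lung, and C9, which forms the ring of the pore, at 677 in liver and 4.36 in lung. The folds over the next class ran from 61.3 for C6 to 151 for C8B. C9's model lies over part of the model of DAB2, so its low values outside liver are uncertain.

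C7, which joins the pore after C6 (ENSSSCG00000016859, chromosome 16, 25843208 to 25902707), stood at 25.1 FPKM in liver, against 87.3 in kidney, 47.9 in lung, 415 in spleen, 266 in ovary, 5.46 in adipose tissue, 14.3 in heart, 1.72 in psoas major and 0.888 in longissimus dorsi. Spleen and ovary were highest, kidney and lung were also above liver, and liver minus spleen was -3.99 on the log2 scale. Under median-of-ratios scaling spleen and ovary were still highest, but liver (44.9 scaled FPKM) was above lung (31.4). C6 and C7 are neighbours, 121 kb apart on chromosome 16, and had opposite orders in liver and spleen.

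CFB, the protease of the alternative pathway's C3 convertase (ENSSSCG00000024914, chromosome 7, 24033587 to 24041617), was also enriched in liver and stood at 906 FPKM in liver, against 0.865 in kidney, 77.6 in lung, 1.61 in spleen, 13.5 in ovary, 6.38 in adipose tissue, 0.389 in heart, 0.718 in psoas major and 0.778 in longissimus dorsi. Lung was next, and liver was 11.5-fold above it. C2, its counterpart in the classical and lectin pathways, lies next to CFB on chromosome 7 (ENSSSCG00000001422, chromosome 7, 24020323 to 24034120) and stood at 249 FPKM in liver, against 1.49 in kidney, 51.0 in lung, 25.2 in spleen, 10.004 in ovary, 39.7 in adipose tissue, 2.66 in heart, 2.98 in psoas major and 1.94 in longissimus dorsi. C2 fell just short of the rule as deposited, at 4.82-fold over lung and a log2 difference of 2.27, but passed it under median-of-ratios scaling (3.58) and quantile normalisation (2.34). It was at 1 FPKM or more in all 9 tissues. The models of C2 and CFB overlap by 0.534 kb, and that of CFB also overlaps NELFE, so reads in the overlap may be counted for either.

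**Figure D2:**
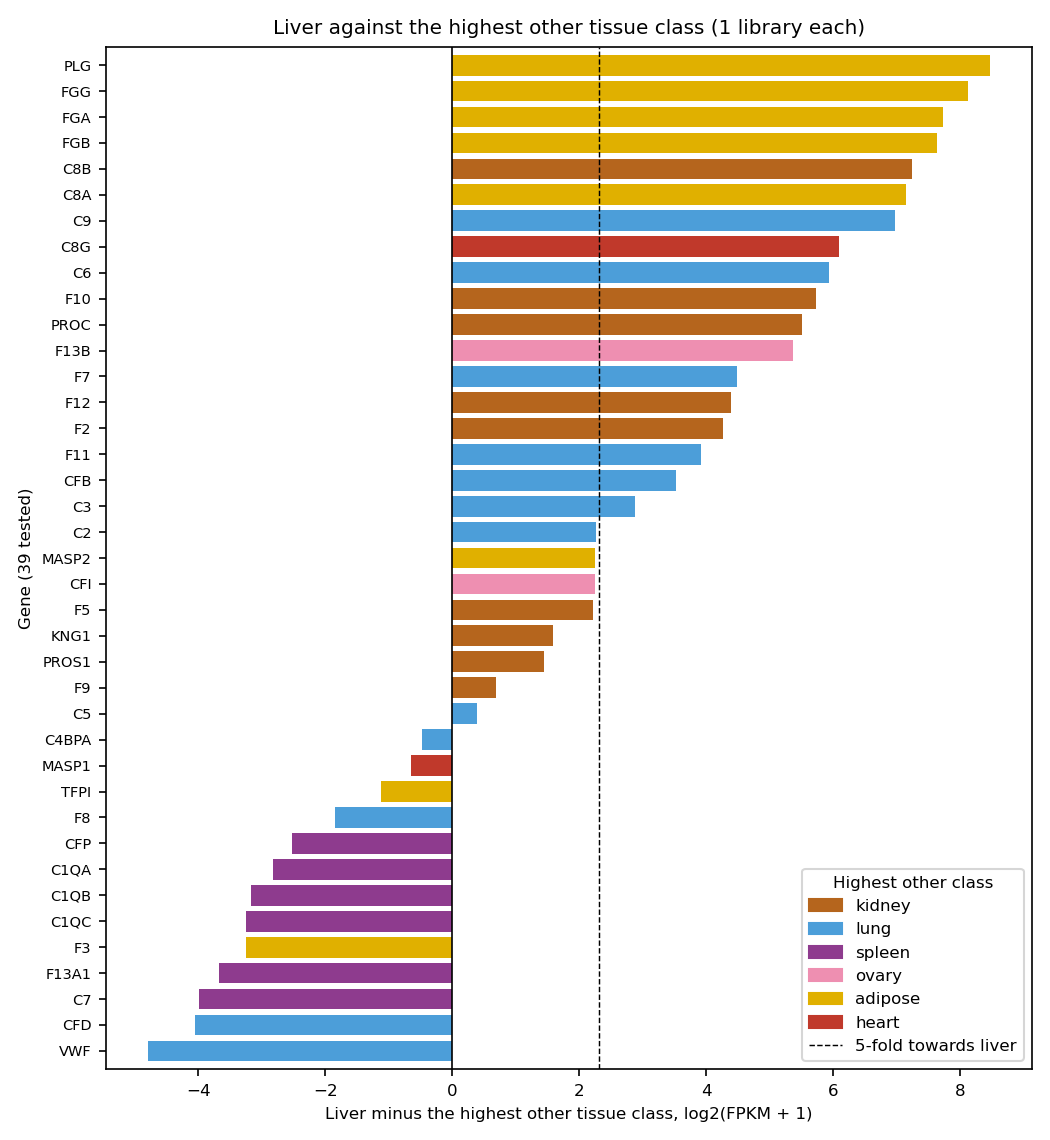
Difference in log2(FPKM + 1) between liver and the highest other class for each of the 39 tested factors, with bars coloured by that other class and a dashed line at 5-fold. The 26 bars above 0 run from 0.39 for C5 to 8.48 for PLG, and the 13 bars below 0 run from -0.47 for C4BPA, which turned positive under median-of-ratios scaling, to -4.79 for VWF.

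Several further factors were highest in liver with a sizeable second level. CFI, the protease that inactivates C3b and C4b (ENSSSCG00000009138, chromosome 8, 112433640 to 112470946), stood at 799 FPKM in liver, against 108 in kidney, 26.3 in lung, 7.96 in spleen, 168 in ovary, 3.18 in adipose tissue, 1.02 in heart, 0.250 in psoas major and 0.388 in longissimus dorsi. Ovary and kidney were next after liver, 4.74-fold below for ovary. MASP2, the protease that starts the lectin pathway after sugar binding, stood at 27.1 FPKM in liver and between 0.804 (heart) and 4.88 (adipose tissue) elsewhere, 4.78-fold below liver at the nearest, and its model overlaps that of TARDBP. F5, the cofactor of factor Xa (ENSSSCG00000006289, chromosome 4, 81403265 to 81485066), stood at 78.1 FPKM in liver, against 15.9 in kidney, 1.35 in lung, 6.45 in spleen, 0.289 in ovary, 11.5 in adipose tissue, 0.0549 in heart, 0.120 in psoas major and 0.0958 in longissimus dorsi. Kidney and adipose tissue came next, and liver was 4.68-fold above kidney. Counting C2, MASP2, CFI, F5, KNG1, PROS1, F9 and C5, 8 factors were highest in liver without passing 5-fold, and the first 4 of these lay between 4.68 and 4.82-fold. These calls depended on scaling: 6 of the 8, all but F9 and C5, passed 5-fold under median-of-ratios scaling, among them CFI with a log2 difference of 3.78, MASP2 with 3.18 and F5 with 3.32. MASP2 (2.50) and F5 (2.46) also passed under quantile normalisation, as C2 did, and MASP2 (2.45) with a pseudocount of 0.1.

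The factors highest outside liver were led by the chains of C1q. C1QA, C1QC and C1QB lie within 21.8 kb of each other on chromosome 6. C1QA (ENSSSCG00000003524, chromosome 6, 80586183 to 80591269) stood at 166 FPKM in liver, against 14.2 in kidney, 699.6 in lung, 1176 in spleen, 16.4 in ovary, 115 in adipose tissue, 36.1 in heart, 17.1 in psoas major and 16.2 in longissimus dorsi. C1QB stood at 81.3 FPKM in liver, against 11.3 in kidney, 439 in lung, 744 in spleen, 17.9 in ovary, 73.2 in adipose tissue, 27.1 in heart, 12.9 in psoas major and 10.8 in longissimus dorsi. C1QC stood at 90.8 FPKM in liver, against 10.9 in kidney, 471 in lung, 868 in spleen, 13.4 in ovary, 69.5 in adipose tissue, 24.4 in heart, 13.3 in psoas major and 9.56 in longissimus dorsi. The order was the same for each chain at the top, with spleen first, then lung and liver, and liver minus spleen was -2.82 for C1QA, -3.18 for C1QB and -3.24 for C1QC on the log2 scale. Under median-of-ratios scaling spleen was still first, but the differences were -1.495 for C1QA, -1.86 for C1QB and -1.92 for C1QC, each less than 5-fold. The proportions of the chains varied between tissues: C1QA over C1QB ran from 0.918 in ovary to 2.04 in liver, and C1QA over C1QC from 1.22 in ovary to 1.83 in liver. C1QB was thus above C1QA in ovary.

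Macrophages are a known source of C1q. The summed FPKM of a list of 10 macrophage markers, all of them tested and none listed at 0 in every library, was 259 in liver, 31.1 in kidney, 965 in lung, 656 in spleen, 51.0 in ovary and 201 in adipose tissue. In heart, psoas major and longissimus dorsi it was 79.6, 64.0 and 26.6. Across the 9 tissues the level of C1QA and the mean log2 level of that list had a Pearson's r of 0.973 and a Spearman's rho of 0.967 (n = 9 libraries of 1 study, processed together), given as a description. Pearson's r was 0.969 for C1QB and 0.971 for C1QC. The list was highest in lung and C1q in spleen, and what part the macrophage share plays was not tested.

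The remaining parts of C1, the proteases C1R and C1S, were covered by 1 gene model (ENSSSCG00000000675, chromosome 5, 63644321 to 63681418) and could not be separated. It stood at 403 FPKM in liver, against 14.5 in kidney, 58.0 in lung, 122 in spleen, 45.8 in ovary, 104 in adipose tissue, 21.9 in heart, 12.4 in psoas major and 17.3 in longissimus dorsi. It was highest in liver, 3.29-fold above spleen on the FPKM + 1 scale, unlike the C1q chains. A model on the other strand over C1S (ENSSSCG00000039847) stood at 555 FPKM in liver and 250 in adipose tissue, and the strand of its reads is not known.

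Of the alternative pathway, CFD and CFP were higher outside liver. CFD, the protease that cleaves factor B, is known in mouse as adipsin, a product of fat cells (ENSSSCG00000013418, chromosome 2, 77509860 to 77512207). It stood at 26.7 FPKM in liver, against 15.6 in kidney, 460.5 in lung, 265 in spleen, 93.5 in ovary, 336 in adipose tissue, 67.9 in heart, 54.1 in psoas major and 91.5 in longissimus dorsi. Lung and adipose tissue were highest, and liver was lower than every tissue but kidney. The 6 adipocyte markers summed to 9.64 FPKM in liver, 17.9 in lung and 8751 in adipose tissue. Over the 9 tissues CFD had a Pearson's r of 0.377 with the adipocyte list. With the macrophage list it was 0.661, with the list of endothelial markers 0.591 and with that of fibroblast markers 0.501. The part of any of these cell types in the level of CFD was not tested. Adipose tissue was slightly above lung under median-of-ratios scaling, at 308 against 302 scaled FPKM, and liver minus the highest class was then -2.66, against -4.06 as deposited. CFD's model overlaps those of MED16 and ELANE, and the share of its reads from them was not tested.

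CFP, which encodes properdin, the stabiliser of the alternative convertase (ENSSSCG00000012278, chromosome X, 42142480 to 42152622), stood at 9.14 FPKM in liver, against 0.134 in kidney, 49.1 in lung, 57.1 in spleen, 0.782 in ovary, 3.75 in adipose tissue, 0.434 in heart, 0.721 in psoas major and 0.4995 in longissimus dorsi. Spleen and lung were highest and liver next, with a liver minus spleen difference of -2.52, which was less than 5-fold under median-of-ratios scaling (-1.26), quantile normalisation (-1.84) and a pseudocount of 5 (-2.13), and the other tissues were under 4 FPKM. Over the 9 tissues it had a Pearson's r of 0.965 and a Spearman's rho of 0.833 with the macrophage list.

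C4BPA, the alpha chain of the inhibitor C4b-binding protein (ENSSSCG00000015662, chromosome 9, 67724539 to 67827509), stood at 322 FPKM in liver, against 7.50 in kidney, 447 in lung, 207 in spleen, 10.4 in ovary, 293 in adipose tissue, 30.5 in heart, 25.3 in psoas major and 24.1 in longissimus dorsi. Lung, liver and adipose tissue were close together, and liver minus the highest other class was -0.47 as deposited but 0.97 under median-of-ratios scaling, the only sign among the 39 factors that turned under any of the 3 other scalings. Over the 9 tissues C4BPA had a Pearson's r of 0.896 and a Spearman's rho of 0.90 with the macrophage list, and the part of macrophage share in its level was not tested. C4BPB, which encodes the beta chain, was instead enriched in liver, at 160 FPKM against 5.48 in spleen and 1.82 in lung. The C4BPA model spans both RefSeq entries of that name and touches C4BPB, and it was matched by name alone. MASP1, the other protease of the lectin pathway, stood at 6.42 FPKM in liver, against 0.0687 in kidney, 0.643 in lung, 0.951 in spleen, 0.432 in ovary, 4.18 in adipose tissue, 10.7 in heart, 1.08 in psoas major and 1.43 in longissimus dorsi. Heart was highest, liver next and adipose tissue after it, and liver minus heart was -0.65, or -0.10 under median-of-ratios scaling.

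Among clotting factors, VWF and F8, which circulate as a complex, were lowest in liver as deposited, which held for VWF under each of the 3 other scalings but not for F8. VWF encodes the von Willebrand factor that tethers platelets and carries factor VIII. The row over VWF (ENSSSCG00000000712, chromosome 5, 64517481 to 64678840) overlaps the RefSeq gene by 85.8% of the longer of the pair and is named ANO2 in the name table, so its identity rests on position. This row also overlaps the RefSeq gene ANO2, and its values may hold reads of ANO2. It stood at 1.77 FPKM in liver, against 6.03 in kidney, 75.9 in lung, 13.2 in spleen, 12.3 in ovary, 65.7 in adipose tissue, 51.6 in heart, 16.2 in psoas major and 15.6 in longissimus dorsi. Lung, adipose tissue and heart were highest and liver lowest of all tissues, with a liver minus lung difference of -4.79. F8, the cofactor missing in haemophilia A (ENSSSCG00000012818, chromosome X, 125266879 to 125350651), stood at 3.67 FPKM in liver, against 4.45 in kidney, 15.7 in lung, 12 in spleen, 3.96 in ovary, 9.83 in adipose tissue, 9.63 in heart, 7.08 in psoas major and 4.91 in longissimus dorsi. Lung and spleen were highest as deposited, and liver, ovary and kidney were low and close together, with a liver minus lung difference of -1.84. Under median-of-ratios scaling F8 was at 6.58 scaled FPKM in liver, above kidney (3.67) and ovary (2.45), heart was highest (11.23), and liver minus the highest class was -0.69. Quantile normalisation also put liver (6.33) above kidney and ovary, and liver minus the highest class was -0.80. The row that the name table calls F8 lies over MPP1 and was not used for F8, and the row used overlaps F8A1.

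Endothelium is a known source of both proteins. Of 10 endothelial markers 9 were matched and tested, and their summed FPKM was 87.5 in liver, 145 in kidney, 540 in lung, 134 in spleen, 112 in ovary, 353 in adipose tissue, 225 in heart, 119 in psoas major and 105 in longissimus dorsi. Over the 9 tissues VWF had a Pearson's r of 0.843 and a Spearman's rho of 0.767 with the mean log2 level of that list, and F8 had an r of 0.744 and a Spearman's rho of 0.633. With a list of 8 fibroblast markers VWF had a Pearson's r of 0.678 and a Spearman's rho of 0.667. With the macrophage list F8 had nearly as high a Pearson's r, 0.721 and a Spearman's rho of 0.583. The sums of the endothelial list in kidney and spleen were close, and its members were split. PECAM1, CDH5 and TIE1 were higher in spleen, and KDR, FLT1 and TEK were among those higher in kidney. VWF stood at 6.03 FPKM in kidney and 13.2 in spleen. The part of endothelial, macrophage or fibroblast share in these levels was not tested.

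F13A1, the catalytic subunit of factor XIII, known from macrophages and megakaryocytes (ENSSSCG00000024310, chromosome 7, 3750642 to 3901444), stood at 1.36 FPKM in liver, against 0.640 in kidney, 10.2 in lung, 29.0 in spleen, 0.828 in ovary, 14.9 in adipose tissue, 2.19 in heart, 4.40 in psoas major and 1.48 in longissimus dorsi. Spleen, adipose tissue and lung were highest and liver was among the low tissues, with a liver minus spleen difference of -3.67. The carrier subunit F13B thus had its level of 48.3 FPKM in liver, where F13A1 had 1.36. A list of 8 megakaryocyte and platelet markers, of which 6 were matched and 4 tested, summed to 0.826 FPKM in liver, 52.9 in spleen, 15.4 in lung and 0.956 in adipose tissue. With the macrophage list F13A1 had a Pearson's r of 0.761 and a Spearman's rho of 0.667 over the 9 tissues.

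The surface proteins that start and restrain clotting were low in liver. F3, which encodes tissue factor, the trigger of clotting on cells outside vessels (ENSSSCG00000022447, chromosome 4, 122826644 to 122840508), stood at 0.796 FPKM in liver, against 1.16 in kidney, 13.5 in lung, 0.537 in spleen, 9.71 in ovary, 16.1 in adipose tissue, 1.62 in heart, 0.763 in psoas major and 0.829 in longissimus dorsi. Adipose tissue, lung and ovary were high and the rest at 1.62 FPKM or less, and liver minus adipose tissue was -3.25, less than 5-fold with a pseudocount of 5 (-1.86). F3 had a Pearson's r of 0.822 and a Spearman's rho of 0.867 with the 8 fibroblast markers over the 9 tissues, and 0.716 and 0.717 with the endothelial list. The fibroblast list summed to 178 FPKM in liver, 10484 in adipose tissue, 6413 in ovary and 1737 in lung. It also summed to 1746 in longissimus dorsi, 1375 in heart, 1107 in psoas major, 745 in spleen and 571 in kidney, where F3 was low. The part of either cell type in the level of F3 was not tested. The model of F3 overlaps that of ABCD3, so its low values may hold reads of that gene. TFPI, the inhibitor of tissue factor, stood at 0.484 FPKM in liver, against 0.304 in kidney, 0.544 in lung, 0.183 in spleen, 0.827 in ovary, 2.24 in adipose tissue, 0.288 in heart, 1.69 in psoas major and 1.46 in longissimus dorsi, so that it was low throughout and highest in adipose tissue and the skeletal muscles, with the muscles above adipose tissue under median-of-ratios scaling and quantile normalisation.

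THBD, which encodes thrombomodulin, the endothelial receptor that turns thrombin to activating protein C, was listed at 0 in all 10 libraries (ENSSSCG00000007115, chromosome 17, 30220162 to 30223499). A listed 0 is not read as lack of expression: CEBPA, a liver transcription factor, was also listed at 0 in all 10, and CEBPB at 0 in all but kidney.

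**Figure D3:**
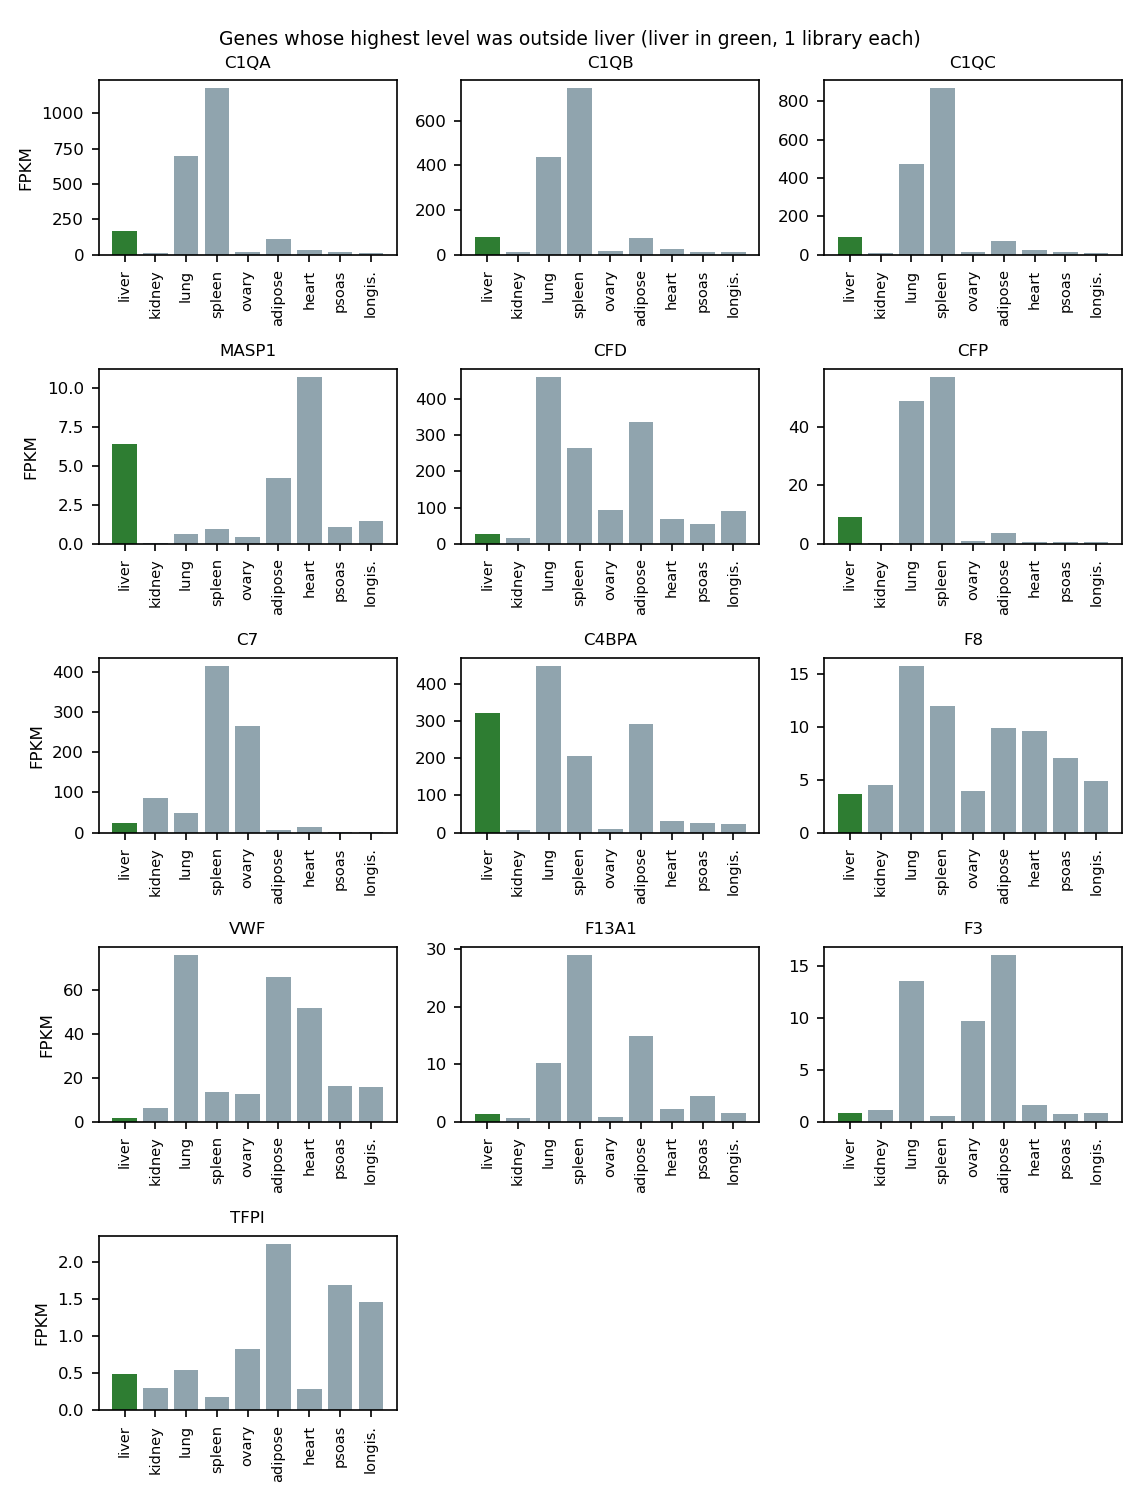
FPKM by tissue for the 13 tested factors whose highest class was not liver, 1 panel each with its own linear axis from 0, liver in green at the left and 1 library per bar. Spleen or lung is tallest for C1QA, C1QB, C1QC, CFP, CFD, C7, F8, VWF, F13A1 and C4BPA as deposited (median-of-ratios scaling put liver first for C4BPA, heart for F8, adipose tissue for CFD and VWF and skeletal muscle for TFPI), adipose tissue for F3 and TFPI, and heart for MASP1.

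Low levels of liver factors appeared in all other tissues, and they were set beside a list of hepatocyte markers that holds none of the 42 factors. For the 18 liver-enriched factors the level in adipose tissue was 0.158 to 0.814% of that in liver, with a median of 0.339% and none listed at 0. The 15 hepatocyte markers that were enriched in liver, of 16 listed (SERPINA1 was not tested), had 0.226 to 6.89% with a median of 0.312% in adipose tissue, where ALB, the albumin gene, stood at 127 FPKM. In kidney the factors had a median of 0.323% and the markers 0.0882%. In lung the medians were 0.0854% and 0.0163%, in ovary 0.0689% and 0.0189%, in spleen 0.0106% and 0.00135%, and in longissimus dorsi 0.0508% and 0.0820%. The median of the factors was 0 in heart and psoas major, where 10 of the 18 were listed at 0 in each, and that of the markers 0.000891% and 0.00223%. Where the transcripts of both lists in adipose tissue came from was not tested.

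Some factors stood above the whole marker list. Of the 26 factors highest in liver, 10 had a level in kidney of 1 FPKM or more that was a larger share of the liver level than that of any hepatocyte marker (at most 1.59%, for TF), against 65.3% of all 887 genes highest in liver. These were F9 (61.4%), PROS1 (36.5%), KNG1 (33.1%), F5 (20.4%), CFI (13.6%), MASP2 (13.2%), F2 (5.06%), F12 (4.15%), PROC (1.996%) and C5 (1.85%). ALB stood at 30453 FPKM in liver and 0.146 in kidney. In lung there were 9 such factors, against 55.2% of all genes highest in liver, led by C5 (76.4%), PROS1 (33.7%), C2 (20.4%), MASP2 (15.0%) and C3 (13.5%). In ovary there were 5 (55.0% of all), among them PROS1 (32.4%), CFI (21.0%) and C3 (11.103%). Spleen and adipose tissue had the same 4, namely C2, MASP2, F5 and PROS1 (48.7% and 46.4% of all). Psoas major had 4 (45.0% of all), longissimus dorsi 2 (41.8%) and heart 1 (44.8%), with PROS1 in each. The share of liver factors above the markers was therefore below that of liver-high genes at large in each of the 8 tissues.

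**Figure D4:**
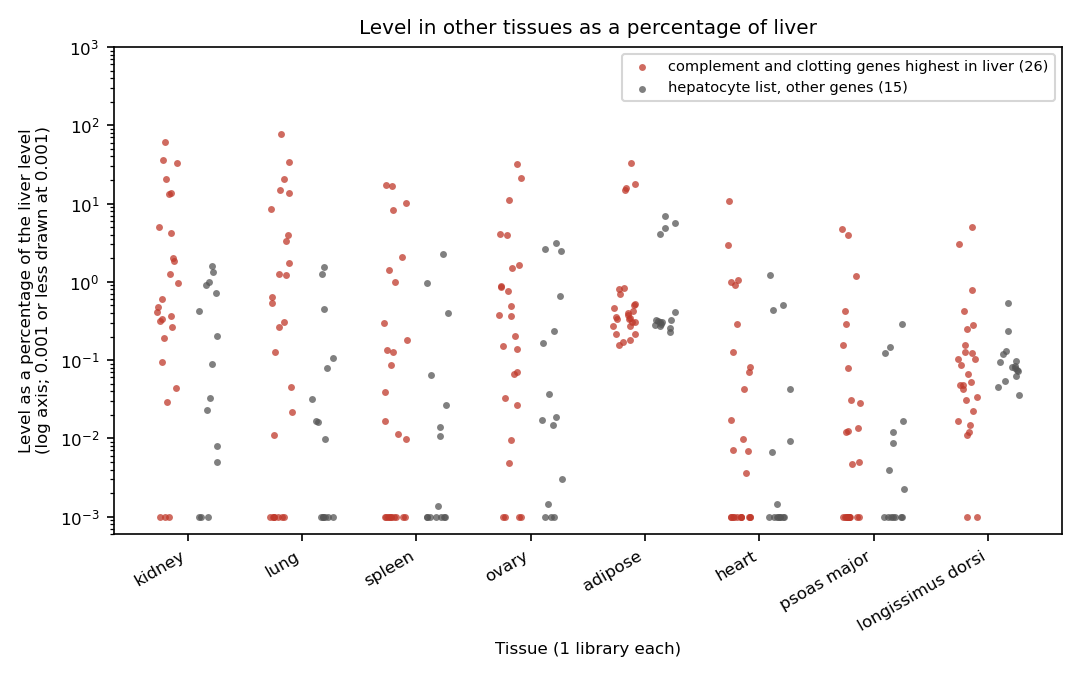
Level in each tissue outside liver as a percent of the liver level, on a log axis, for the 26 factors highest in liver and the 15 hepatocyte markers, 1 point per gene, with levels of 0.001% or less, zeros included, drawn at 0.001%. Among the factors that lie above every marker are F9, PROS1, KNG1 and F5 in kidney, and C5 and PROS1 in lung.

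Genes that regulate or receive complement were divided between liver and other tissues. Of 25 such genes 22 were matched, 20 were tested, 10 were highest in liver and 6 were enriched there, with none enriched elsewhere and a median liver minus mean of the other classes of 2.45. Of all tested genes 5.67% were highest in liver, 1.51% enriched there and 4.98% enriched elsewhere, with a median of -0.70. The enriched genes were VTN (vitronectin, 3051 FPKM in liver), C4A (399), C4BPB (160), the lectin MBL2 (100.6) and the 2 carboxypeptidase N genes CPN1 (31.95) and CPN2 (27.2), which clip anaphylatoxins. VTN is also among the hepatocyte markers. CLU, which encodes clusterin, stood at 1012 FPKM in liver and 597 in ovary, and SERPING1, the C1 inhibitor, at 632 in liver and 254 in adipose tissue. The 10 genes not highest in liver were highest in spleen (5), adipose tissue (3) or lung (2).

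Of 24 regulators and receptors of clotting and fibrinolysis, 22 were matched, 20 tested, 8 highest in liver and 6 enriched there, with none enriched elsewhere and a median of -0.02. The same figures over all tested genes were 5.67% highest in liver, 1.51% enriched there, 4.98% enriched elsewhere and a median of -0.70. The enriched genes were HRG (histidine-rich glycoprotein, 2178 FPKM in liver), SERPINC1 (antithrombin, 1690), SERPINA5 (the protein C inhibitor, 493), SERPIND1 (heparin cofactor II, 226), the clearance receptor gene ASGR1 (201) and KLKB1 (plasma prekallikrein, 77.9). CPB2, whose product protects fibrin from plasmin, stood at 732 FPKM in liver and 157 in kidney, and thus had the liver and kidney order of F9 and KNG1. The other 12 tested genes were highest in adipose tissue (4), ovary (3), lung (2), spleen, kidney or heart (1 each).

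The vitamin K cycle and secretion helpers were less confined. Of 6 genes 5 were matched and tested, 3 were highest in liver (5.67% of all genes) and none was enriched (1.51%), with a median of 1.35 (-0.70). LMAN1, the cargo receptor for factors V and VIII, stood at 47.1 FPKM in liver and 27.3 in spleen, the convertase gene FURIN at 46.6 in liver and 31.9 in kidney, and MCFD2, the partner of LMAN1, at 44.4 in liver and 25.7 in kidney.

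Of 14 liver transcription factors all were matched and 13 tested. Of these 7 were highest in liver, 4 in kidney and 2 in lung, with a median of 2.26. FOXA3 (8.23 FPKM), ONECUT1 (7.75) and ATF5 (377) were enriched in liver, and CEBPB was listed at 6.03 FPKM in kidney and at 0 in liver and every other tissue. The rule calls CEBPB enriched in kidney, but that call rests on listed zeros, which are not read as lack of expression. HNF4A stood at 50.0 FPKM in liver and 94.3 in kidney, and CEBPD at 20.6 in liver and 54.6 in lung. Promoter sequences and their motifs were not searched here.

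Depth limits the low values. It was estimated from the spacing of low values among short genes, at 11.2 M fragments in psoas major to 30.9 M in lung, and each estimate may be off 2-fold. A single fragment on a 2 kb transcript would then be worth 0.0162 FPKM in lung and 0.0446 in psoas major, and values at that level rest on a few fragments. Library sums of FPKM lay between 292495 (kidney) and 369254 (longissimus dorsi). The tissue labels matched their markers: all tested hepatocyte, adipocyte, kidney tubule and ovary markers were highest in liver (15 of 15), adipose tissue (6 of 6), kidney (5 of 5) and ovary (6 of 6). No such list was made for lung or spleen.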

How the data were processed

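RNA-seq levels of 9 tissues and a tissue pool were read from the single deposited table. Per the labels' protocols, TRIzol served for extraction of total RNA and a TruSeq kit for the libraries. The assembly was Sscrofa11.1 and the tools StringTie 1.2.2 and TopHat2 2.1.0, per the submitters' processing notes. The annotation release, strandedness and filters were not stated there. The values deposited by the authors were read as FPKM, a unit inferred from their form, since the header names none.

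Each gene model was named by the RefSeq protein-coding gene at the same position (reciprocal overlap of at least 0.5 of the longer, best match both ways) and otherwise by a table of Ensembl identifiers. Position and table together named 67.6% of the rows, and 93.3% of 12756 rows named both ways had equal names. Levels were compared as log2(FPKM + 1) over 8 classes, and no test was run with 1 library per tissue. The members and the gene lists were chosen with earlier results of these data known. All members are named, with the 3 highest and the enriched genes of each pathway list, except 1 list gene that is not reported here. Alternatives varied the pseudocount, fold, scaling, filter, muscle classes, handling of rows sharing a symbol and naming. The enrichment rule was run on simulated data whose planted liver differences exceeded its threshold. That run checks the calculation only, and not calls on low values or unreplicated libraries. No column of values was left unused. Scripts ran in Python 3.11.15 with pandas 2.3.3, numpy 2.4.6, matplotlib 3.10.9 and scipy 1.17.1.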

Additional observations from a re-analysis of the deposited data

Results flagged for a closer look

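F9, the gene of coagulation factor IX, stood at 108 FPKM in the pool of tissues, a library outside the tissue comparison, against 89.5 in liver, its highest level in any single tissue. Of the 39 tested factors 1 (2.56%), F9, was above each of the tissues that the pool's label names, a property of 234 of all 15637 tested genes (1.496%). The pool's label lists each tissue but adipose tissue, with muscle unspecified, and no library repeats this value.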

How the results depend on the processing

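The count of factors highest in liver ran from 25 (naming by the name table alone) to 27 (median-of-ratios scaling) under the 8 alternatives that could change it. Under all 12, the count enriched in liver ran from 17 (10-fold rule, and the name table alone) to 24 (median-of-ratios scaling), and no factor was enriched in another class. The median of liver minus the mean of the other classes ran from 3.69 (pseudocount 5) to 7.41 (pseudocount 0.1). The median of all genes was -0.70 as deposited, -0.14 under median-of-ratios scaling and -0.20 under quantile normalisation. Of 387 values of single factors under the 10 alternatives that keep the 5-fold rule, 369 kept their sign and side of it, 7 no longer passed it, 10 newly passed it and 1 reversed. Median-of-ratios scaling took C1QA, C1QB, C1QC and CFP under 5-fold and C2, CFI, MASP2, F5, PROS1 and KNG1 over it. The reversed value was that of C4BPA, whose difference between liver and the highest other class was -0.47 as deposited and 0.97 under median-of-ratios scaling, and the cause was not tested. No paired analysis was possible because the labels give no replicate numbers and each tissue has 1 library. Naming rows by the name table alone was added after the data were seen. Values near 1 fragment and listed zeros are limited by depth. Merged or overlapping gene models limit C1R, C1S, C4BPA, FGB and VWF, among others.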

Other observations

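In the pool, the 18 liver-enriched factors stood at 37.3% (F11) to 60.4% (F7) of their liver level, with a median of 47.2%, and the 15 hepatocyte markers at 37.5 to 58.4%, with a median of 50.1%. The C1q chains stood at 31.3% (C1QA), 29.5% (C1QB) and 28.4% (C1QC) of their spleen level, and CFP at 30.1%. C7 stood at 15.0% of its spleen level and F13A1 at 23.1%. VWF stood at 34.7% of its lung level, F8 at 45.5% and C4BPA at 59.3%.

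Neighbouring factors differed in how alike they were. FGG, FGA and FGB lie within 54.6 kb on chromosome 8, C8B and C8A 8.53 kb apart on chromosome 6, and F7 and F10 2.96 kb apart on chromosome 11, and each of these was enriched in liver. KNG1 and MASP1 lie 394 kb apart on chromosome 13, with KNG1 highest in liver and MASP1 in heart. In liver the ratio of C8A to C8B was 0.991, that of FGB to FGG 1.55 and that of FGB to FGA 3.98.

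Some genes of the pathway lists, named here after their values were seen, also departed from the order of the liver factors. FCN2, which encodes a ficolin of the lectin pathway, stood at 70.2 FPKM in liver, 198 in lung and 205 in adipose tissue. GGCX, the carboxylase of the vitamin K cycle, stood at 13.5 FPKM in liver and 42.6 in adipose tissue. SERPINF2, the plasmin inhibitor, stood at 170 FPKM in liver and 80.1 in kidney, and TFPI2 at 11.4 in liver and 254 in ovary.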
